A study of Mus musculus with 15 samples.

Results

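The core circadian clock genes were examined in mouse liver RNA-seq libraries of Stab1-/- and wildtype mice. The genes were Arntl, Clock, Npas2, Per1, Per2, Per3, Cry1, Nr1d1, Nr1d2 and Dbp. They were taken by symbol from a table of 19464 gene rows, in which each of the 10 has 1 row. Their positions on GRCm38 (GENCODE vM21) are chr7:113207465-113314126 for Arntl (gene ID 11865), chr5:76209868-76304792 for Clock (12753), chr1:39193731-39363236 for Npas2 (18143), chr11:69095217-69109960 for Per1 (18626), chr1:91415982-91459324 for Per2 (18627), chr4:151003652-151044665 for Per3 (18628), chr10:85131700-85185064 for Cry1 (12952), chr11:98767932-98775333 for Nr1d1 (217166), chr14:18204054-18239127 for Nr1d2 (353187) and chr7:45705088-45710203 for Dbp (13170). Livers came from 4 wildtype and 4 Stab1-/- mice aged 2 weeks, and from 4 wildtype and 3 Stab1-/- fetuses at embryonic day E17.5. Stab1 encodes Clever-1, a scavenger and adhesion receptor of endothelial cells and macrophages, and the knock-out is in all cells. Both genotypes have the strain background C57BL/6N;129SvJ, and no treatment is given in the labels. The hour of day at which the livers were collected, the sex and whether the genotypes were littermates are not given in the sources used here.

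The mammalian clock is a feedback loop of transcription. ARNTL (also called BMAL1) pairs with CLOCK or with NPAS2 and activates genes that carry an E-box, among them the Per, Cry, Nr1d and Dbp genes. PER and CRY proteins return to the nucleus and inhibit that pair, while NR1D1 and NR1D2 (REV-ERB alpha and beta) repress Arntl, Clock, Npas2 and Cry1 through RORE elements. DBP activates genes that carry a D-box, Per genes among them. In adult mouse liver the RNAs of Arntl and Npas2 therefore peak at another time of day than those of Nr1d1, Dbp and Per3, and a liver sample shows a single moment of that cycle. In rodents the rhythm of these genes in the liver is weak or absent before birth and grows in the weeks after it.

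The stretches before the transcription start of 4 of the genes are shown because they hold letter matches to elements of this loop. These genes, Per3, Nr1d1, Nr1d2 and Cry1, all rose with age. They were picked on both grounds, so no link between match and rise can be read from them. Clock also met both grounds, and its windows are not shown. RefSeq windows on GRCm38.p6 were held for 9 of the 10 genes and not for Per2. Each line gives the 250 bases up to the base before the start, 5′ to 3′ on the gene's strand, with matches in capitals. The capitals are TTATGTAA (a D-box) in Per3, AACGTG (the reverse complement of CACGTT, an E-box variant) in Nr1d1 and Cry1, CACGTG (an E-box) in Cry1 and AGGTCA (the core of a RORE) in Nr1d2.
Per3, chr4:151044666-151044915, minus strand: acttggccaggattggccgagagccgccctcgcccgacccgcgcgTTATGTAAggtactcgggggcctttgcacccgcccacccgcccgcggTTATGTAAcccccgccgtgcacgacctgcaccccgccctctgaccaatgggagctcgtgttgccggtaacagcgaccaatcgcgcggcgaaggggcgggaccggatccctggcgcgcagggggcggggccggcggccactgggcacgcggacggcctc
Nr1d1, chr11:98775378-98775627, minus strand: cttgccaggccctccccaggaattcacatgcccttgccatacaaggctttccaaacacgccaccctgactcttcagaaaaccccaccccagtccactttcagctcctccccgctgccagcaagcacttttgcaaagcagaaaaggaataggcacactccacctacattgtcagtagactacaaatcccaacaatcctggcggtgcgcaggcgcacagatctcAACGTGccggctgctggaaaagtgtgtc
Nr1d2, chr14:18239107-18239356, minus strand: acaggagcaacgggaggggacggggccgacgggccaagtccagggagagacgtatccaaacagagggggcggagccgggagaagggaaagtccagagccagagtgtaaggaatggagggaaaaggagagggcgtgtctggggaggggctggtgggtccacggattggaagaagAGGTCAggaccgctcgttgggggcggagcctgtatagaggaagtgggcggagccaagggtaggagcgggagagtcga
Cry1, chr10:85185055-85185304, minus strand: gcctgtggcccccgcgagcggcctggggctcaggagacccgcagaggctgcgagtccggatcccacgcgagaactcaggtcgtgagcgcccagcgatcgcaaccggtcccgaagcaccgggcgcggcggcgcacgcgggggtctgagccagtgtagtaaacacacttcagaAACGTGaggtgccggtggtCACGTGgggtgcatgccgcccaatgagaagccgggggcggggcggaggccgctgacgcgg
The D-box match of Per3 occurs at 2 places, which begin 205 and 158 bases before the start. Both strands were searched, and among 32851 such windows of 27025 genes 0.819% held TTATGTAA, 6.02% held CACGTG, 3.85% held CACGTT and 14.0% held AGGTCA. These are matches of letters and no measured binding. Windows of Per1 (CACGTG and AGGTCA) and Clock (AGGTCA) also held matches, whereas those of Arntl, Npas2 and Dbp held none of these letters.

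Between 9659 and 10964 reads per library (in units of 1000) were counted on genes. Levels are given as RPKM, the reads of a gene scaled by its length and by the library's total. The labels were checked on the targeted gene. Stab1 was between 0.862 and 1.54 RPKM in the 4 Stab1-/- livers against 7.30 to 11 RPKM in the 4 wildtype livers at 2 weeks, and between 3.60 and 5.23 RPKM in the 3 Stab1-/- livers against 14.9 to 21.8 RPKM in the 4 wildtype livers at E17.5. All 8 hepatocyte markers examined, Alb among them, were present in every group. Libraries with reads of other organs stood apart at E17.5. The summed level of 8 intestinal markers was 197 RPKM in Stab1-/- replicate 1 and between 4.0 and 13.5 RPKM in the other 6 fetal libraries, and that of 5 pancreatic markers was 2044 RPKM in wildtype replicate 2 and between 11.7 and 204 RPKM in the others. Genotype differences of the clock genes at E17.5 are therefore given with and without these 2 libraries, the ones with most reads of other organs. Lower pancreatic sums stayed in those fits, at 204 and 71.8 RPKM in wildtype replicates 3 and 1 and 65.1 RPKM in Stab1-/- replicate 3. At 2 weeks the intestinal sum was 81.9 to 133 RPKM in Stab1-/- and 47.9 to 144 RPKM in wildtype livers. Of the 8 intestinal markers, 3 stood at 0 in every 2-week Stab1-/- liver and 4 in every 2-week wildtype liver.

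Among the 10 genes, Nr1d2 had the highest level at 2 weeks, with 21.1 ± 4.80 RPKM in the knock-out and 15.6 ± 4.42 RPKM in wildtype livers (SD, n = 4 each). At E17.5 the highest was Per1, which encodes a period protein, with 12.1 ± 0.768 RPKM (SD, n = 3) and 12.4 ± 1.44 RPKM (SD, n = 4). The lowest at 2 weeks was Npas2, the alternative partner of ARNTL, with 0.580 ± 0.208 RPKM in knock-out and 0.781 ± 0.346 RPKM in wildtype livers, and it rested on 15 to 50 reads per library. At E17.5 Dbp was the lowest in both genotypes and rested on 8 to 16 reads per library. For the other 8 genes each library held at least 36 reads. When the 4 groups were ordered by level, 4 genes had a gap between neighbouring groups, and in each it lay between the ages: every 2-week library exceeded every fetal library for Per3, Nr1d1, Nr1d2 and Dbp. In all other steps of the order, for all 10 genes, the libraries of neighbouring groups overlapped.

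**Figure D1:**
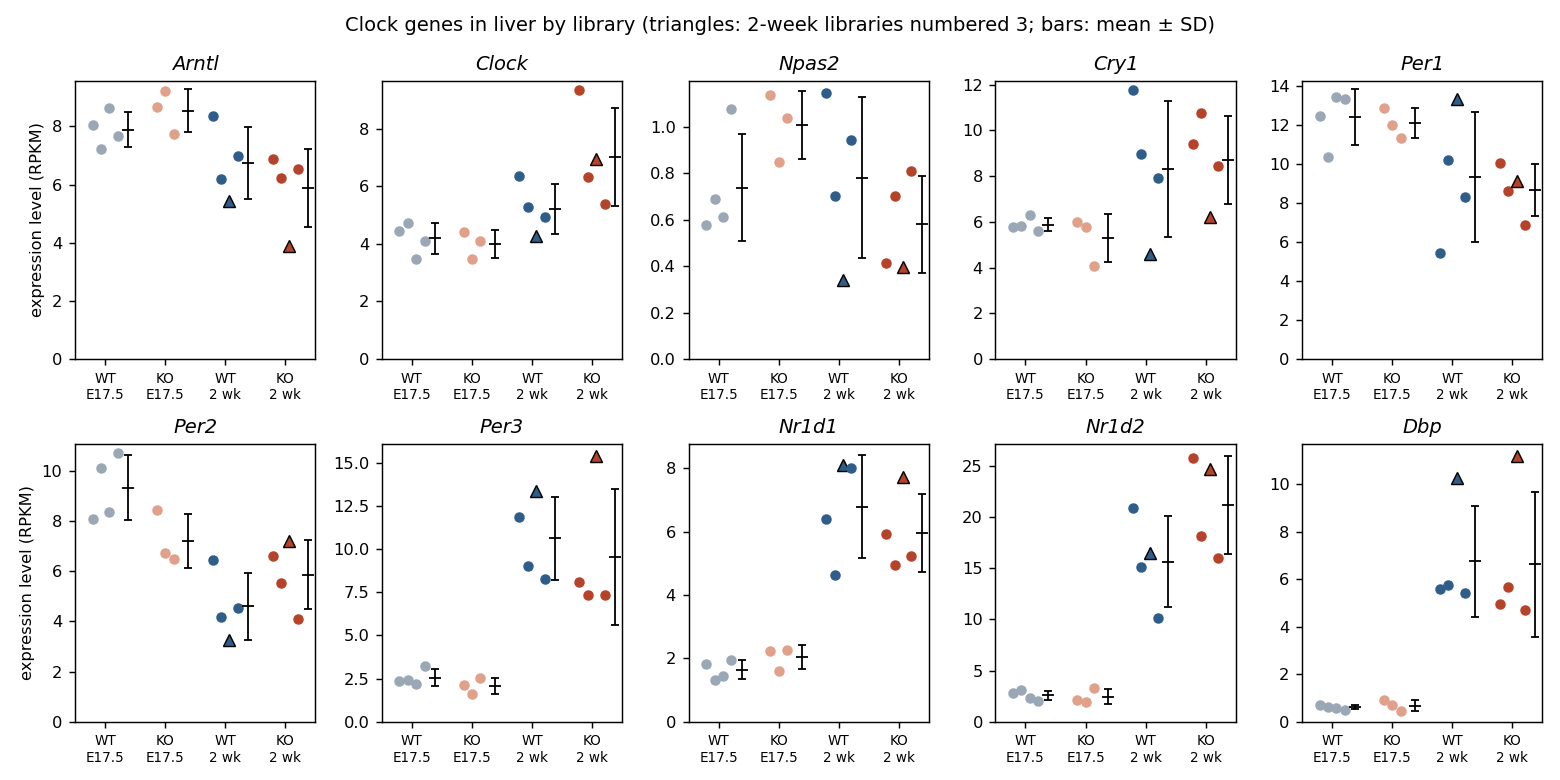
Expression level in RPKM of the 10 clock genes in each of the 15 libraries, by genotype (WT, wildtype; KO, Stab1-/-) and age, with the group mean ± SD beside the points (n = 4, and n = 3 for Stab1-/- at E17.5). Triangles are the 2-week libraries numbered 3, which hold the highest Dbp and Per3 and the lowest Arntl and Cry1 of their groups, and fetal Dbp lies below 1 RPKM in every library.

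Maturation of the liver between E17.5 and 2 weeks was compared within each genotype. The output and repressor genes Dbp, Nr1d2, Per3 and Nr1d1 rose 3.41-fold to 14.1-fold in both genotypes, and Clock and Cry1 rose 1.60-fold to 2.03-fold. Per2 fell in wildtype and Per1 fell in Stab1-/- livers, whereas Arntl and Npas2 did not pass the test in either. In wildtype livers 6 of the 10 genes were thus higher and 1 was lower at 2 weeks (edgeR, Benjamini-Hochberg adjusted p under 0.05), beside 34.9% higher and 37% lower among all 13369 genes tested. In Stab1-/- livers it was again 6 higher and 1 lower, beside 35.7% higher and 36.8% lower among 13433 genes. The called changes thus stood against a background in which 71.9% and 72.5% of all genes passed in either direction. At an unadjusted p under 0.05 it was 7 of the 10 in each genotype, beside 73.9% and 74.5%.

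Dbp, the activator that binds D-boxes, had the largest estimated change of the 10 in both genotypes. It was listed at 0.720, 0.627, 0.598 and 0.501 RPKM in the wildtype and at 0.906, 0.684 and 0.450 RPKM in the Stab1-/- fetuses. At 2 weeks it reached 5.58, 5.77, 10.3 and 5.42 RPKM in wildtype and 4.95, 5.69, 11.2 and 4.71 RPKM in Stab1-/- livers. The ages did not overlap, and in both genotypes the library numbered 3 stood far above the other 3. The log2 fold change was 3.82 (standard error 0.28, adjusted p = 1.34e-07) in wildtype and 3.49 (standard error 0.38, adjusted p = 8.63e-06) in Stab1-/- livers by edgeR, and without the 2-week replicate 3 it was 3.54 and 3.14. In Stab1-/- livers that of Nr1d2 was 3.20 to 3.60 when single libraries were left out, so Dbp did not rank first there without replicate 3. An exon stretch of 539 of the 2993 Dbp exon bases is shared with Sphk2 on the other strand, and whether counting used strand is not given in the sources used here.

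Nr1d2, which encodes the repressor REV-ERB beta, was at 2.84, 3.05, 2.34 and 2.03 RPKM in wildtype and 2.13, 1.92 and 3.27 RPKM in Stab1-/- fetuses. Its 2-week levels were 20.8, 15.1, 16.5 and 10.1 RPKM in wildtype and 25.7, 18.1, 24.7 and 16.0 RPKM in Stab1-/- livers. The ages were far apart in both genotypes. The log2 fold change was 2.96 (standard error 0.20) in wildtype and 3.33 (standard error 0.21) in Stab1-/- livers, with adjusted p of 5.79e-08 and 1.28e-07 (edgeR). Its close relative Nr1d1, which encodes REV-ERB alpha, started lower. It was at 1.84, 1.31, 1.46 and 1.96 RPKM in wildtype and 2.24, 1.60 and 2.26 RPKM in Stab1-/- fetuses, and at 6.40, 4.64, 8.10 and 8.03 RPKM and 5.94, 4.97, 7.72 and 5.24 RPKM in the 2-week livers. Again no 2-week library lay as low as a fetal one. Nr1d1 rose by 2.42 (95% confidence interval 1.95 to 2.88) on the log2 scale in wildtype and by 1.77 (1.36 to 2.18) in Stab1-/- livers. The test of the difference between these effects is the one of genotype by age below, and it did not pass. Nr1d1 shares 263 of its 3077 exon bases with Thra on the other strand.

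Per3, a period gene that carries the pair of D-box matches shown above, was between 2.21 and 3.25 RPKM in the wildtype and between 1.62 and 2.54 RPKM in the Stab1-/- fetuses. At 2 weeks it was at 11.9, 9.01, 13.4 and 8.25 RPKM in wildtype and at 8.09, 7.35, 15.4 and 7.35 RPKM in Stab1-/- livers. Its log2 fold changes were 2.42 in wildtype and 2.41 in Stab1-/- livers (95% confidence intervals 2.04 to 2.80 and 1.81 to 3.01). The other period genes went another way. Per2 was between 8.10 and 10.7 RPKM in wildtype fetuses and between 3.25 and 6.44 RPKM in 2-week wildtype livers, with no overlap, and fell by 0.66 on the log2 scale (standard error 0.17, edgeR adjusted p = 0.00346). In Stab1-/- livers its ages overlapped, at 6.47 to 8.45 RPKM and 4.09 to 7.23 RPKM, and the log2 fold change was -0.083 (95% confidence interval -0.42 to 0.25). Per1 fell by 0.26 on the log2 scale in Stab1-/- livers (edgeR adjusted p = 0.0467), a call that was lost when Stab1-/- replicate 2, 3 or 4 of 2 weeks or replicate 1 or 2 of E17.5 was left out (-0.28 to -0.21) and in DESeq2 (-0.26, adjusted p = 0.0579). In wildtype livers its log2 fold change was -0.044 (95% confidence interval -0.53 to 0.44).

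Of the activator side, Clock rose by 0.68 in wildtype and by 1.02 in Stab1-/- livers on the log2 scale (edgeR adjusted p = 0.000376 and 9.51e-05). The repressor Cry1, grouped here with the activators since it shares their RORE control, rose by 0.86 and by 0.95 (adjusted p = 0.00247 and 0.00115). Arntl was at 8.05, 7.21, 8.62 and 7.68 RPKM in wildtype fetuses and at 8.34, 6.18, 5.45 and 7.0 RPKM in 2-week wildtype livers, a log2 fold change of 0.13 (95% confidence interval -0.15 to 0.41). In Stab1-/- livers it was at 8.65, 9.23 and 7.75 RPKM against 6.87, 6.21, 3.90 and 6.54 RPKM, a log2 fold change of -0.32 (-0.72 to 0.086). Npas2 had log2 fold changes of 0.44 (-0.26 to 1.14) and -0.56 (-1.21 to 0.096). RPKM and these fold changes differ in scale, since edgeR's TMM factors centre the bulk of genes. When libraries were scaled by their totals instead, the median log2 fold change of all genes was -0.38 in wildtype and -0.24 in Stab1-/- livers, as against -0.015 and -0.014 with TMM. On that scale Arntl was at -0.23 in wildtype livers (adjusted p = 0.139), Clock and Cry1 no longer passed in wildtype livers (0.32 and 0.50), and Arntl, Npas2 and Per1 all passed as lower in Stab1-/- livers (-0.54, -0.79 and -0.48).

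The exact permutation test of single genes, two-sided on RPKM, cannot go below p = 0.0286 for 4 against 4 libraries or 0.0571 for 3 against 4. In wildtype livers Dbp, Nr1d1, Nr1d2, Per3 and Per2 reached that smallest value. Clock and Cry1, whose ages overlapped there, had exact permutation p of 0.0857 and 0.143. The groups of the 2 ages did not overlap for 5 of the 10 genes in wildtype livers (69.1% of all genes tested) and for 9 of the 10 in Stab1-/- livers (72% of all genes). In wildtype livers 4 were higher and 1 was lower at 2 weeks, beside 21.1% and 48% of all genes, and in Stab1-/- livers 6 were higher and 3 were lower, beside 28% and 44%. The 3 lower genes were Arntl, Npas2 and Per1, whose RPKM was lower in every 2-week than in every fetal Stab1-/- liver. The cell makeup of the samples moved with age as well. All 8 erythroid and all 8 granulocyte markers were called lower at 2 weeks, with erythroid sums of 191 to 440 RPKM at 2 weeks against 9902 to 13344 RPKM at E17.5, and granulocyte sums of 31.8 to 422 RPKM against 3708 to 8435 RPKM. The sums of the 8 hepatocyte markers were 69110 to 103267 RPKM at 2 weeks against 50891 to 63161 RPKM at E17.5. In whole liver, fewer cells of a type and less RNA per cell cannot be told apart, and the part of cell makeup in the changes of the clock genes was not tested.

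**Figure D2:**
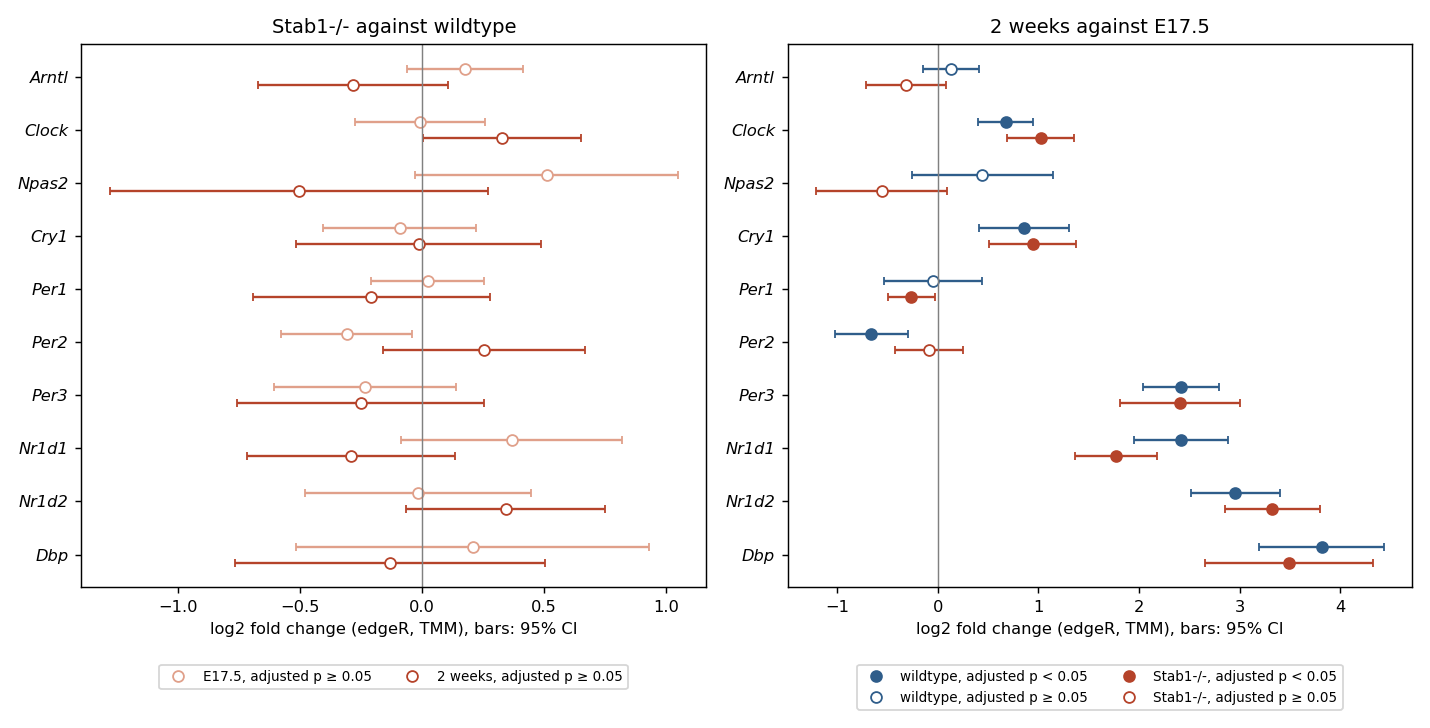
Log2 fold changes of the 10 clock genes with 95% confidence intervals (edgeR, TMM), Stab1-/- against wildtype on the left and 2 weeks against E17.5 on the right. Filled points passed an adjusted p of 0.05: no genotype estimate did, whereas Dbp, Nr1d2, Nr1d1, Per3, Cry1 and Clock lie to the right of 0 with age in both genotypes.

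None of the 10 clock genes was called between the genotypes by edgeR, apart from 1 in a fit with replicate numbers as a block, given at the end. At 2 weeks 0 of the 10 genes passed in edgeR, and 1 of them had an unadjusted p under 0.05. All genes gave 2.67% called (0.936% higher and 1.74% lower) and 23.4% with an unadjusted p under 0.05. DESeq2 and limma called 0 of the 10 as well. For 0 of the 10 did the groups stand apart in RPKM, while among all genes they did for 10.4% with the Stab1-/- livers higher and for 4.5% with them lower. The gene nearest to a call was Clock, at 9.37, 6.31, 6.96 and 5.38 RPKM in knock-out and 6.36, 5.30, 4.29 and 4.94 RPKM in wildtype livers. Its groups overlapped, and the log2 fold change was 0.33 (95% confidence interval 0.0057 to 0.65, edgeR adjusted p = 0.206, exact permutation p = 0.0857). Nr1d2 stood at 0.34 (-0.064 to 0.75) and Per2 at 0.25 (-0.16 to 0.67). These 3 estimates moved with the processing. Without Stab1-/- replicate 1 that of Clock was 0.18, without wildtype replicate 4 that of Nr1d2 was 0.20, and without both libraries numbered 3 that of Per2 was 0.020. Fold changes at 2 weeks went with GC content over all genes (Spearman's rho = -0.344 over genes, which are no independent replicates), and with offsets for GC content the values were 0.12 for Clock, 0.19 for Nr1d2 and 0.35 for Per2, with 0 of the 10 genes called.

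The estimates of the other genes did not divide by the 2 sides of the loop. Arntl (-0.28, 95% confidence interval -0.67 to 0.11) and Npas2 (-0.50, -1.28 to 0.27) were lower in the estimate in 2-week Stab1-/- livers, and so were the genes that peak at another time of day, Nr1d1 (-0.29, -0.72 to 0.14), Per3 (-0.25, -0.76 to 0.25) and Dbp (-0.13, -0.77 to 0.50). Per1 shared that sign (-0.21, -0.69 to 0.28), whereas the estimates of Per2 and Nr1d2 given above were of the opposite sign to those of Arntl and Npas2. The intervals of Arntl, Npas2 and of all these genes include 0, so the estimates settle neither an opposed nor a common shift between the genotypes. The median log2 fold change of the 10 genes was -0.17, beside -0.013 over all genes tested. Without both libraries numbered 3 the estimates were -0.20 for Arntl, -0.60 for Npas2, -0.32 for Nr1d1, -0.42 for Per3 and -0.20 for Dbp, and again 0 genes passed (edgeR).

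At E17.5, 0 of the 10 genes passed in edgeR, DESeq2 and limma, and 1 had an unadjusted p under 0.05, beside 0.366% called (0.194% higher and 0.172% lower) and 12.9% with such a p among 13388 genes. That gene was Per2, at 8.45, 6.74 and 6.47 RPKM in Stab1-/- and 8.10, 10.1, 8.36 and 10.7 RPKM in wildtype fetuses. The log2 fold change was -0.31 (95% confidence interval -0.58 to -0.040, edgeR adjusted p = 0.338). Npas2 stood at 0.51 (-0.027 to 1.05), Nr1d1 at 0.37 (-0.087 to 0.82), Dbp at 0.21 (-0.52 to 0.93) and Arntl at 0.18 (-0.061 to 0.41). Per3 stood at -0.23 (-0.61 to 0.14). Arntl, Npas2, Nr1d1 and Dbp thus shared a positive sign, while Per2 and Per3 were opposite to them, and of these 6 only the interval of Per2 leaves out 0. Groups that stood apart in RPKM occurred for 0 of the 10 genes, and among all genes for 2.91% with the Stab1-/- fetuses higher and 9.3% with them lower. The median of the 10 was 0.0076, and 0.0013 over all genes. Leaving out the 2 libraries with most intestinal or pancreatic reads left 0 genes called, though lesser pancreatic sums remained. The estimates were then 0.14 for Arntl, 0.40 for Npas2, 0.22 for Nr1d1, -0.38 for Per2, -0.25 for Per3, -0.18 for Cry1 and -0.0075 for Clock, and those of Per1, Nr1d2 and Dbp changed sign to -0.087, 0.18 and -0.023.

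The genotype effects at the 2 ages were compared by an interaction contrast fitted over all 15 libraries together, taken as E17.5 minus 2 weeks. In edgeR 0 of the 10 genes passed and 1 had an unadjusted p under 0.05, beside 1.81% called (1.01% higher and 0.799% lower) and 23.2% with such a p among 13885 genes, and DESeq2 and limma called 0 too. Per2 was the gene with the smallest p, at -0.60 (95% confidence interval -1.13 to -0.069, adjusted p = 0.167). Npas2 had the largest estimate, at 0.98 (-0.026 to 1.98), and Nr1d1 followed at 0.62 (-0.012 to 1.25). Without both 2-week libraries numbered 3 the value of Per2 was -0.36. A difference of genotype effect between the ages was thus not detectable for these genes with 3 or 4 libraries per group.

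Within the 2-week groups the clock genes varied more between livers than most genes did. Their standard deviation on the log2(RPKM + 0.1) scale was above the median of all genes tested for 10 of 10 genes in each genotype, with a median over the 10 of 0.345 in Stab1-/- and 0.415 in wildtype livers against 0.178 and 0.210 over all genes. At E17.5 it was above the median for 8 of 10 genes in each genotype, at 0.238 and 0.193 against 0.159 and 0.151. Dbp in 2-week Stab1-/- livers stood at the 97.9th percentile of all genes and Npas2 in wildtype livers at the 96.9th. These are descriptions of 3 or 4 libraries each, and the genes were not matched by level. Npas2 in those wildtype livers rested on 15 to 50 reads per library, and the part of counting noise in its spread was not tested.

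In each genotype 1 library was singled out after the values were seen. The libraries numbered 3 held the highest Dbp and Per3 and the lowest Arntl, Npas2 and Cry1 of their group in both genotypes. In the Stab1-/- library, on the log2(RPKM + 0.1) scale, Dbp lay 1.11, Per3 1.01 and Nr1d1 0.52 above the mean of the other 3 libraries, whereas Arntl lay at -0.73, Cry1 at -0.61 and Npas2 at -0.54. In the wildtype library the same differences were 0.87 for Dbp, 0.48 for Per3 and 0.38 for Nr1d1, with -0.38 for Arntl, -1.02 for Cry1 and -1.21 for Npas2. Nr1d1 was the highest of its group in both libraries, in wildtype livers only just (8.10 against 8.03 RPKM in replicate 4). Arntl, Npas2 and Cry1 thus differed in the opposite direction to Dbp, Per3 and Nr1d1 between libraries of the same genotype, in both genotypes.

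Not every gene took part. Per1 was the highest of its group in wildtype replicate 3, at 13.3 RPKM against 5.43 to 10.2 RPKM, but lay within the range of its group in Stab1-/- replicate 3. Nr1d2 lay within the range of its group in both libraries. It was at 24.7 RPKM in Stab1-/- replicate 3, below the 25.7 RPKM of replicate 1, and at 16.5 RPKM in wildtype replicate 3, below 20.8 RPKM in replicate 1. Per2 differed in sign, with 0.44 in the Stab1-/- and -0.60 in the wildtype library, and Clock stood at 0.028 and -0.35. In all, 8 of the 10 genes deviated with the same sign in these 2 libraries, and the differences correlated over the 10 genes with r = 0.756. In the other 15 pairs of a Stab1-/- with a wildtype 2-week library, 2 to 7 genes shared a sign. At E17.5 a pair with 8 shared signs occurred as well (Stab1-/- replicate 2 and wildtype replicate 3, r = 0.823 over the 10 genes), although the differences there were smaller. The genes of 1 library are no independent points, and these values carry no test.

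**Figure D3:**
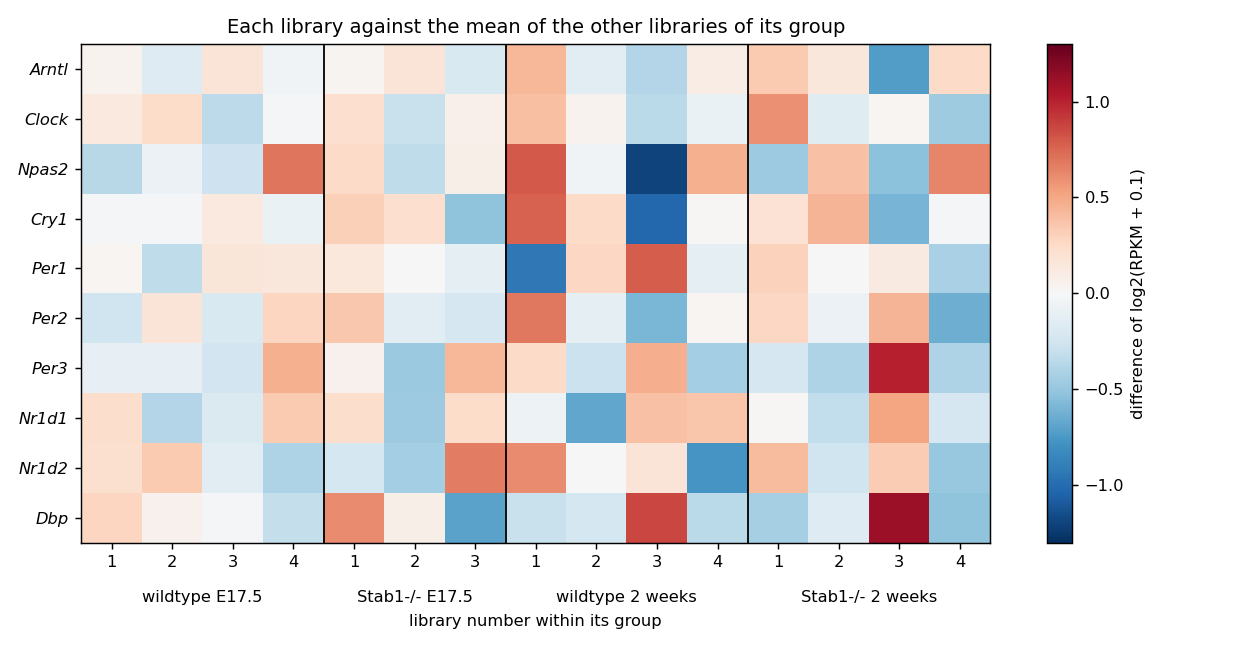
Difference on the log2(RPKM + 0.1) scale between each library and the mean of the other libraries of its group, for the 10 clock genes (rows) and 15 libraries (columns, numbered as in the labels). Red is higher and blue is lower. The 2-week libraries numbered 3 combine blue Arntl, Npas2 and Cry1 with red Per3, Nr1d1 and Dbp in both genotypes.

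The contrast was summarised per library as the mean log2(RPKM + 0.1) of Arntl, Clock, Npas2 and Cry1 minus that of Per1, Per2, Per3, Nr1d1, Nr1d2 and Dbp, as a description with no test. It was -1.90 in Stab1-/- and -1.87 in wildtype replicate 3, and between -1.04 and -0.65 in the other 6 livers of 2 weeks. The group means were close, at -1.12 ± 0.54 in Stab1-/- and -1.06 ± 0.55 in wildtype livers (SD, n = 4 each). Fetal livers lay on the other side of 0, at 0.33 ± 0.13 (SD, n = 3) and 0.19 ± 0.059 (SD, n = 4), with a range of 0.098 to 0.45.

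**Figure D4:**
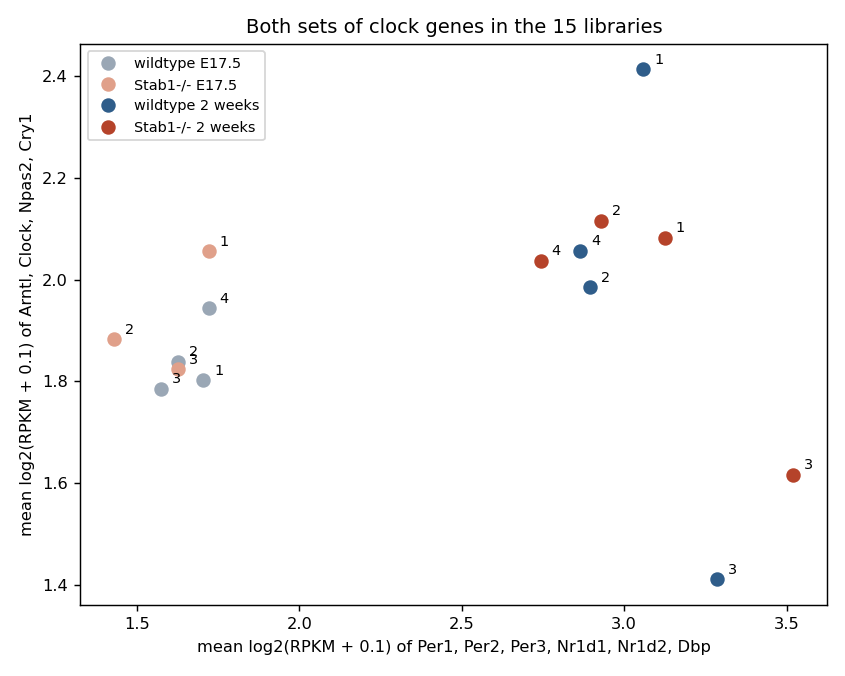
Mean log2(RPKM + 0.1) of Arntl, Clock, Npas2 and Cry1 (vertical axis) against that of the Per genes, Nr1d1, Nr1d2 and Dbp (horizontal axis) in the 15 libraries, each marked with its replicate number. Fetal libraries sit together on the left, and the 2-week libraries numbered 3 sit at the lower right, apart from the other 6 livers of that age.

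Other measures moved with these 2 libraries. The metallothionein genes Mt1 and Mt2, which respond to metals and glucocorticoids, were highest in them. Mt1 was at 592 RPKM in Stab1-/- replicate 3, with 127 to 415 RPKM in the other 3 livers, and at 524 RPKM in wildtype replicate 3, with 92.6 to 115 RPKM in the others. Mt2 was at 257 RPKM with 34.9 to 199 RPKM in the others, and at 177 RPKM with 9.97 to 13.8 RPKM in the others. Summed hepatocyte, granulocyte and Kupffer cell markers of both libraries lay within the range of their groups, while the 5 endothelial markers (64.4 and 71.7 RPKM) and the 5 B lineage markers (9.31 and 12.3 RPKM) were the highest of their groups. The erythroid sum was the highest of its group in Stab1-/- replicate 3 (440 RPKM) and within range in wildtype replicate 3 (394 RPKM), and the stellate cell sum was the highest in the former (221 RPKM) and the lowest in the latter (192 RPKM). Tef, a close relative of Dbp, was also highest in both (46.4 and 40.3 RPKM, with 24.2 to 35.7 RPKM in the other 6). The part of these measures in the pattern was not tested, and it cannot be set against the hour of collection, which is not given.

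Whether genes moved together from library to library was tested over 15 libraries after each group's mean was removed, by exact permutation within groups. Of 45 pairs, 0 passed a Benjamini-Hochberg adjusted p of 0.05 and 6 had an unadjusted permutation p under 0.05. The smallest was that of Arntl and Cry1, both RORE-controlled genes, with r = 0.784 and Spearman's rho = 0.675 (n = 15, permutation p = 0.00509 and 0.0169, adjusted 0.229 and 0.377). Without the 2 libraries farthest from the median of Arntl, which were the 2-week libraries numbered 3, r was 0.643. Clock went with Per2 (r = 0.738, rho = 0.593, n = 15, permutation p = 0.0116 and 0.0485, adjusted 0.262 and 0.377), and r stayed at 0.703 without its 2 farthest libraries. The other pairs of one sign with an unadjusted p under 0.05 were Per3 with Nr1d1 (r = 0.663) and Clock with Nr1d2 (r = 0.608). Among opposed pairs, Npas2 and Dbp had r = -0.635 and rho = -0.582 (n = 15, permutation p = 0.0254 and 0.0343, adjusted 0.284 and 0.377), and Npas2 and Per1 had r = -0.727 and rho = -0.575 (permutation p = 0.0378 and 0.0753, adjusted 0.284 and 0.377). Without the 2 libraries farthest in Npas2, replicates 1 and 3 of the 2-week wildtype livers, r was -0.489 and -0.409. The 2-week Stab1-/- replicate 3 stayed in. Arntl and Dbp had r = -0.680 and rho = -0.425 (permutation p = 0.0553 and 0.173, adjusted 0.288 and 0.648), and Arntl and Per3 had r = -0.698 and rho = -0.582 (permutation p = 0.0558 and 0.0595, adjusted 0.288 and 0.377). Without the 2 libraries farthest in Arntl, again those numbered 3, these became r = -0.137 and -0.261. When the groups were centred anew without those 2 libraries (n = 13), r was 0.207 for Arntl and Dbp and -0.011 for Arntl and Per3, so that these 2 relations rested on those livers, while it was -0.206 for Npas2 and Dbp, -0.521 for Npas2 and Per1, 0.607 for Arntl and Cry1 and 0.744 for Clock and Per2.

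The genes most like Arntl, Nr1d1 and Dbp in this respect were looked up among 11530 genes with a mean of at least 1 RPKM, by r over the same 15 group-centred libraries. For Arntl they were Ppard (r = 0.921), Pelo, Alox5ap, Fhl3 and Nans (0.810), and the most opposed were Cdkn3 (-0.878), Tceanc2, Mcc, Lck and Pla2g12a (-0.844). For Nr1d1 they were Lmo7 (0.894), Tef (0.883), Eif4ebp2, Plekhg3 and Sipa1 (0.870), and the most opposed were Ears2 (-0.880), Snrpc, Slc33a1, Kdelr2 and Mrps17 (-0.838). For Dbp they were Zfp13 (0.868), Rabep2, Zfp358, Cln3 and Slc39a5 (0.822), and the most opposed were Trip13 (-0.852), Rhot1, Gldc, Pkd2l2 and Ccdc174 (-0.807). None of the 10 clock genes was among these, and of 17 further clock genes only Tef was. The values are the extremes of 11530 and are given without a test.

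The rest of the clock was read from 17 further clock genes. In wildtype livers 8 of the 14 tested were higher and 3 lower at 2 weeks, and in Stab1-/- livers 6 of 15 were higher and 3 lower (edgeR). Among all genes 34.9% were higher and 37% lower in wildtype, and 35.7% and 36.8% in Stab1-/- livers. The median log2 fold changes were 0.44 and 0.10, beside -0.015 and -0.014 over all genes. Tef and Hlf, which encode D-box activators related to DBP, rose together with Dbp. Tef was at 9.45 ± 0.903 RPKM in wildtype and 9.35 ± 0.716 RPKM in Stab1-/- fetuses and at 32.9 ± 6.88 RPKM and 35.4 ± 7.46 RPKM in the 2-week livers (SD, n = 4, and n = 3 for the Stab1-/- fetuses). The log2 fold changes were 2.17 and 2.14 for Tef and 1.26 and 1.20 for Hlf. Nfil3, which encodes the repressor at the same D-box, rose by 1.04 and 0.59. Of the genes for degradation factors of clock proteins, Fbxl21 rose by 3.13 in wildtype and by 3.57 in Stab1-/- livers, whereas Btrc fell by 1.29 and by 1.09. Timeless fell by 0.97 and by 1.22. Fbxw11 rose by 0.24 and 0.26, Rora rose by 0.64 in wildtype livers, and Csnk1d, a kinase of PER proteins, fell by 0.23 in Stab1-/- livers.

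At 2 weeks 1 of 15 further clock genes was called between the genotypes, beside 2.67% of all genes tested. Bhlhe40 encodes DEC1, a repressor at E-boxes. It was at 19.5, 22.0, 29.1 and 23.9 RPKM in knock-out and at 36.5, 37.8, 29.2 and 28.5 RPKM in wildtype livers. The groups overlapped narrowly, since Stab1-/- replicate 3 lay above wildtype replicate 4. The log2 fold change was -0.56 (standard error 0.14, edgeR adjusted p = 0.0491, exact permutation p = 0.0571), and the call was lost in 7 of 8 fits that left out a library. It was also lost in 7 of 11 other settings, among them library totals, GC offsets and both limma fits (limma adjusted p = 0.0945 and 0.0912). In fetuses the order was the other way, with 34.4, 24.8 and 26.0 RPKM in knock-out and 21.0, 20.8, 20.9 and 21.7 RPKM in wildtype livers, and no overlap (log2 fold change 0.48, adjusted p = 0.104). The difference between these effects passed the interaction test at 1.01 (95% confidence interval 0.63 to 1.39, edgeR adjusted p = 0.0187). That call was lost without Stab1-/- replicate 1 of E17.5, the library with most intestinal reads (0.90, adjusted p = 0.0567). It was also lost without both fetal libraries with most reads of other organs (0.88, adjusted p = 0.115). With age Bhlhe40 rose by 1.0 in wildtype livers and stood at -0.035 (95% confidence interval -0.36 to 0.29) in Stab1-/- livers, a pair of values that rests on the same libraries.

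Genes that cycle in adult liver under the clock were read from a list of 13. With age 8 of 12 tested were higher and 1 lower in wildtype, and 8 were higher and 2 lower in Stab1-/- livers (edgeR), beside 34.9% and 37% of all genes in wildtype and 35.7% and 36.8% in Stab1-/- livers. The median log2 fold changes were 1.79 and 1.54. Insig2, which restrains sterol synthesis, rose by 3.99 and 3.87, from 7.32 ± 0.613 RPKM to 91.4 ± 33.9 RPKM in wildtype livers (SD, n = 4 each). Usp2, a deubiquitinase gene, rose by 3.05 and 2.67, Avpr1a by 2.97 and 3.12, Upp2 by 2.93 and 3.68, and Alas1, the first enzyme of haem synthesis, by 2.75 and 2.35. Por rose by 2.11 and 1.59, Nampt by 1.48 and 1.49 and Lonrf3 by 1.12 and 1.37. Wee1, which encodes a mitotic kinase, fell by 0.56 and by 0.62, and Gys2 fell by 0.39 in Stab1-/- livers. Alas1 was lowest of its group in both 2-week libraries numbered 3, at 47.2 RPKM in knock-out and 43.2 RPKM in wildtype livers. Between the genotypes 0 of the 12 were called at either age (edgeR), with 2 at an unadjusted p under 0.05 at 2 weeks and 1 at E17.5, beside 23.4% and 12.9% of all genes.

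Signals that can set or mask the clock were read from 6 glucocorticoid-responsive and 6 immediate-early genes. Sgk1, a kinase gene that glucocorticoids induce, was the only gene of the 11 tested to be called between the genotypes at 2 weeks, beside 2.67% of all genes tested. It was at 11.3, 14.6, 17.8 and 10.5 RPKM in knock-out and at 16.7, 21.7, 21.4 and 21.5 RPKM in wildtype livers. Stab1-/- replicate 3 lay above wildtype replicate 1, so the groups overlapped, and the log2 fold change was -0.68 (standard error 0.16, edgeR adjusted p = 0.0478, exact permutation p = 0.0571). Its call was lost in 6 of 8 fits that left out a library and in 5 of 11 other settings, among them library totals and both limma fits. The other glucocorticoid-responsive genes did not pass in edgeR, whereas the study lists Mt2 as significantly upregulated in Stab1-/- livers of this age. Of all 6, 2 had an unadjusted p under 0.05, beside 23.4% of all genes. The estimates were positive for 3 and negative for 3, with a median of 0.22. Mean RPKM was higher in knock-out livers for Zbtb16, Mt1 and Mt2 and lower for Fkbp5 and Tsc22d3. Of the immediate-early genes all 5 tested had negative estimates with a median of -0.56, and 0 passed in edgeR, while Jun (-0.84, adjusted p = 0.139) and Junb (-0.69, adjusted p = 0.102) had an unadjusted p under 0.05. With age Tsc22d3 rose by 2.31 and 2.27, Sgk1 by 1.75 and 1.20, Egr1 by 2.12 and 1.62 and Ier2 by 1.22 and 1.08, whereas Mt1 fell by 1.99 and by 2.13 and Mt2 fell by 3.39 and by 2.93.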

How the data were processed

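Liver RNA from 15 mice was sequenced by the authors and deposited as 1 table with read counts per gene, RPKM values and the percent of each gene's bases covered in each library. Aligner, genome build and strand setting are not given in the sources used here. Recomputed RPKM differed from the deposited RPKM by at most 7.66e-12 percent, and column sums equalled the header totals in 15 of 15 libraries. Of 19464 rows, 222 held no read. Differences in read counts were assessed by edgeR 4.0.16, run under R 4.3.3, on genes kept by filterByExpr (minimum 10 reads, total 15), with TMM factors (quasi-likelihood test, Benjamini-Hochberg over all genes tested, threshold 0.05), each comparison on its own groups and the interaction on all 15 libraries. Replicates are separate mice per the study's methods, and p-values set the difference between groups against the spread between these libraries. Single genes were compared by exact permutation of RPKM, and pairs of genes by all 82944 permutations within groups on log2(RPKM + 0.1), in place of the drawing of permutations first planned. The methods were tested on simulated data.

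Alternatives were DESeq2 1.42.0, limma 3.58.1 on log2(RPKM + 0.1) and log2(RPKM + 1), other scalings, no filter, a fit to all libraries and leaving out each library. Offsets for GC content and fits without the 2-week libraries numbered 3 or the fetal libraries with most reads of other organs were added after seeing the data. The 10 clock genes and the gene lists were chosen with earlier results of these data known. Named were the 10 genes, Stab1, list genes called in any comparison (some are not reported here), and for Arntl, Nr1d1 and Dbp the 5 most alike and 5 most opposed genes. Positions are from GENCODE vM21, and promoter windows are from RefSeq.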

Additional observations from a re-analysis of the deposited data

Results flagged for a closer look

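In groups of 4 libraries, 39 combinations of a gene and a group were searched for a library whose gap to its nearest neighbour took more of the group's range than Dixon's critical value for 4 samples allows, which chance gives in about 1 of 20. It was found 4 times. Per3 in the 2-week Stab1-/- livers reached 15.4 RPKM in replicate 3, with 8.09 RPKM as the next value (ratio 0.908). Dbp reached 11.2 RPKM in the same library, with 5.69 RPKM next (ratio 0.848), and 10.3 RPKM in wildtype replicate 3, with 5.77 RPKM next (ratio 0.928). Sgk1 was lowest in wildtype replicate 1 of 2 weeks, at 16.7 RPKM with 21.4 RPKM next (ratio 0.941). Between the ages, the genotype effect differed for Stab1 itself by 1.24 (edgeR interaction, adjusted p = 0.0310), with the smaller reduction at E17.5, and for Bhlhe40 by 1.01 (adjusted p = 0.0187). The call for Stab1 was lost in 7 of 15 fits that left out a library (1.13 to 1.29) and in limma with a pseudocount of 0.1 and 1 (1.05 and 0.54, adjusted p = 0.0540 and 0.130). It was also lost without the fetal libraries with most reads of other organs (1.22, adjusted p = 0.136).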

How the results depend on the processing

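The rise of Dbp, Nr1d2, Nr1d1 and Per3 with age kept its direction and its call under every alternative run in both genotypes. The call of 1 lower clock gene with age in Stab1-/- livers did not: 0 were called in DESeq2, without a filter and in the fit to all 15 libraries, 3 with library totals, 3 in limma with a pseudocount of 0.1 and 3 with 1, and 0 to 1 when single libraries were left out. Clock and Cry1 stayed higher with age in wildtype livers, but their calls were lost with library totals and in limma. With pseudocounts of 0.1 and 1, limma gave adjusted p of 0.0787 and 0.0752 for Clock and 0.122 and 0.112 for Cry1. The causes were not tested. In wildtype livers Npas2 was called higher without wildtype replicate 3 of 2 weeks (0.70, adjusted p = 0.0304), and in Stab1-/- livers it was called lower without replicate 4 of 2 weeks (-0.81, adjusted p = 0.0328).

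Genotypes share replicate numbers in the labels. Deviations of same-numbered libraries correlated with r = 0.0233 to 0.204 at 2 weeks and -0.178 to 0.00044 at E17.5, and not every library correlated best with its own number, so the numbers were not taken to pair the mice. With a replicate block, 1 clock gene was called higher at 2 weeks (Nr1d2, 0.36, adjusted p = 0.0487), Arntl was called lower with age in Stab1-/- livers (-0.43, adjusted p = 0.0461), Cry1 at 2 weeks was 0.016 and Per2 with age in Stab1-/- livers was 0.033. Over all genes at 2 weeks the block gave 642 higher and 539 lower calls, as against 119 and 221 without it, 429 and 458 in DESeq2 and 316 and 387 in the fit to all libraries. At E17.5 the counts were 26 and 23, with 10 and 13 under the block and 107 and 112 in DESeq2. For the interaction they were 140 and 111, with 439 and 649 under the block and 618 and 448 in DESeq2.

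Signs changed for log2 fold changes that passed the test under neither setting. Cry1 at 2 weeks became 0.070 with library totals, 0.12 and 0.099 in limma with a pseudocount of 0.1 and 1, 0.0042 with all 15 libraries, 0.057 with GC offsets and 0.087 with GC offsets and the block. Per1 at E17.5 became -0.037 with library totals and -0.031 and -0.029 in limma. Clock at E17.5 became 0.099 with GC offsets and 0.10 with the block as well, and Nr1d2 there became 0.058 with GC offsets. Arntl with age in wildtype livers became -0.23 with library totals and -0.24 and -0.21 in limma. Without both 2-week libraries numbered 3, Per1 became 0.016 at 2 weeks, and the interactions of Per1 and Per3 became -0.027 and 0.16. The interaction of Per3 was 0.023 in DESeq2 and 0.024 with median-of-ratios factors. Without the fetal libraries with most reads of other organs, Per1, Nr1d2 and Dbp at E17.5 became -0.087, 0.18 and -0.023.

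When single libraries were left out, the 2-week values ran from -0.40 to 0.035 for Per1, -0.20 to 0.19 for Cry1 and -0.48 to 0.16 for Dbp. At E17.5 they ran from -0.092 to 0.062 for Clock, -0.059 to 0.071 for Per1, -0.19 to 0.070 for Cry1, -0.28 to 0.11 for Nr1d2 and -0.031 to 0.44 for Dbp. With age Per1 ran from -0.27 to 0.18 in wildtype and Per2 from -0.19 to 0.0089 in Stab1-/- livers. The interactions ran from -0.045 to 0.39 for Per1, -0.18 to 0.30 for Per3 and -0.31 to 0.082 for Cry1. Depth limits Npas2 and fetal Dbp most.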
